A study of Rattus norvegicus with 6 samples.

Results

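The miR-26 family is described here by 3 mature miRNAs, rno-miR-26a-5p, rno-miR-26b-5p and rno-miR-26b-3p (the prefix for rat is left out from here on), which were picked by name from the 775 miRNAs listed in a count table of rat brain small RNA. All 3 had enough reads to be tested, as did 454 miRNAs in total. The table compares 3 libraries of the 2VO group with 3 libraries of the tilianin-treated 2VO group. In both groups the common carotid arteries of male Sprague-Dawley rats, bought at 7 weeks of age, were ligated on both sides, a rat model of vascular dementia. The treated rats received tilianin, a flavonoid glycoside, by gastric tube each day over 4 weeks, at 40 mg/kg dissolved in 0.5% CMC-Na, and the 2VO rats were given this vehicle alone at 5 mL/kg. Libraries of sham-operated rats were not analysed here, so every comparison is between ligated rats with and without tilianin. The sample labels give the tissue as brain, while the study's caption for its sequencing plots names cortical tissue. The labels do not say whether a library is a single rat, so the p-values measure only the spread between these libraries.

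A miRNA is cut from a hairpin RNA, and usually 1 arm, the guide strand, is kept in the silencing complex while the other arm, the passenger strand, is mostly degraded. Bases 2 to 8 of the guide, the seed, pair with target mRNAs. The miR-26 hairpins lie within genes of the Ctdsp group, which encode small C-terminal domain phosphatases that act with the repressor REST to keep neuronal genes silent outside neurons. miR-26b was described as repressing a phosphatase of this same group, a loop between a miRNA and its host gene during neuronal differentiation. miR-26a is also known as a repressor of the histone methyltransferase EZH2, and it is widely expressed across tissues.

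The guide strands are shown first because they share a seed and differ at few bases, which bears on how their reads are told apart. The sequences are from RefSeq (GRCr8), 5′ to 3′, with the seed in capitals.
miR-26a-5p: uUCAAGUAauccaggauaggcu
miR-26b-5p: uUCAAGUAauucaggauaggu
miR-26a-3p: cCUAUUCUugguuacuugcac
miR-26b-3p: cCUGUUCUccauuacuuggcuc
Counted from 1 at the 5′ end of miR-26a-5p, the guides differ by C11U and C21U over the 21 bases they have in common, and miR-26a-5p is 22 bases long. Their first 10 bases are identical. The passenger strands differ at 7 of 21 positions, among them A4G within the seed window, so each has a seed of its own. Of the 693 mature rat miRNAs in the RefSeq table, the seed UCAAGUA at bases 2 to 8 occurs in 2, and these are miR-26a-5p and miR-26b-5p. miR-1297, which carries this seed in human, is listed at 0 counts in all 6 libraries, and its rat hairpin does not hold these letters.

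The hairpins are given to show where the arms sit, with the arms in capitals. In GRCr8, Mir26a lies at chr8:127633048-127633137 on the plus strand inside Ctdspl, and Mir26b at chr9:83425709-83425793 on the plus strand inside Ctdsp1.
Mir26a: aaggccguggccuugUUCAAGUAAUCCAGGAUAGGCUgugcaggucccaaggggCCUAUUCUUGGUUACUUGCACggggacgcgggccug
Mir26b: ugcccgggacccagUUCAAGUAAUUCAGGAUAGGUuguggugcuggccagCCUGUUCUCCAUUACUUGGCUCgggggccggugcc
The hairpins are 90 and 85 bases long, and in both the guide comes from the 5′ arm.

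The libraries held 7175872 to 13198776 counts. A count of 0 allows up to 3 counts, which is 0.227 to 0.418 CPM (read counts divided by the size of the library) by library totals and covers counting error only. Tilianin-treated replicate 2 stood apart. Its Spearman correlations with the other libraries were 0.936 to 0.957, against 0.983 to 0.992 among the other 5. In that library the summed Hox-cluster miRNAs (miR-10a-5p, miR-10b-5p, miR-196a-5p and miR-196b-5p) reached 21658 CPM. In 2VO libraries they lay between 89.8 and 149 CPM, and the lowest treated library, at 321 CPM, was also above these. The summed neuronal miRNAs of treated replicate 2 were the lowest of the treated libraries (61418 CPM, with 95397 to 128815 CPM among 2VO libraries). By group means miR-124-3p and miR-128-3p made up most of the neuronal sum. Over 6 libraries 1 of the 6 neuronal log2 fold changes was above 0, that of miR-129-5p at 0.08 (standard error 0.25). Its choroid plexus sum was high (1074 CPM, with 120 to 151 CPM among 2VO libraries), nearly all of it miR-204-5p. Counts per library were 910 to 6910 for miR-204-5p, 12 to 55 for miR-211-5p and 5 to 36 for miR-449a-5p. Their log2 fold changes over 6 libraries were 1.95, 1.72 and -0.59 (standard error 0.58 for the last), so miR-449a-5p went the other way. The part of these differences between libraries in the miR-26 values was not tested. The fold changes and ratios of the miR-26 miRNAs are also given without treated replicate 2.

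miR-26a-5p did not pass the criterion of the study, an unadjusted p-value below 0.05 with an absolute log2 fold change above 1. It was the most abundant miRNA but for miR-99a-5p, with a mean of 94915 CPM after TMM scaling. In the 2VO group it stood at 90596, 96007 and 91485 CPM in replicates 1, 2 and 3, from 707122 to 1243957 counts. In the tilianin-treated group it stood at 126467, 90507 and 74427 CPM. The treated libraries lay on both sides of the 2VO libraries, so the groups overlapped, with the highest and the lowest level of the 6 both in treated rats. The 2VO libraries averaged 92696 ± 2902 CPM and the treated libraries 97133 ± 26645 CPM (SD, n = 3 each). The log2 fold change was 0.07 (standard error 0.21, 95% interval -0.42 to 0.56), with an adjusted p of 0.926 by edgeR's quasi-likelihood test. On a linear scale the interval runs from 0.745-fold to 1.47-fold, so a change as large as the fold change threshold lies outside it in either direction. The direction was not settled. The log2 fold change was -0.0041 with scaling by library totals and -0.14 without treated replicate 1. Without treated replicate 2 it was 0.14.

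As a share of all counts, miR-26a-5p took 9.51%, 9.42% and 9.52% in the 2VO libraries. It took 12.3%, 8.19% and 7.88% in treated replicates 1, 2 and 3. The 95% Wilson intervals of these shares were narrow, for instance 9.41% to 9.44% in 2VO replicate 2 and 12.28% to 12.33% in treated replicate 1, and they cover counting error alone. The differences among the treated libraries were therefore far larger than counting error, whereas the 2VO libraries lay between 9.42% and 9.52%.

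**Figure D1:**
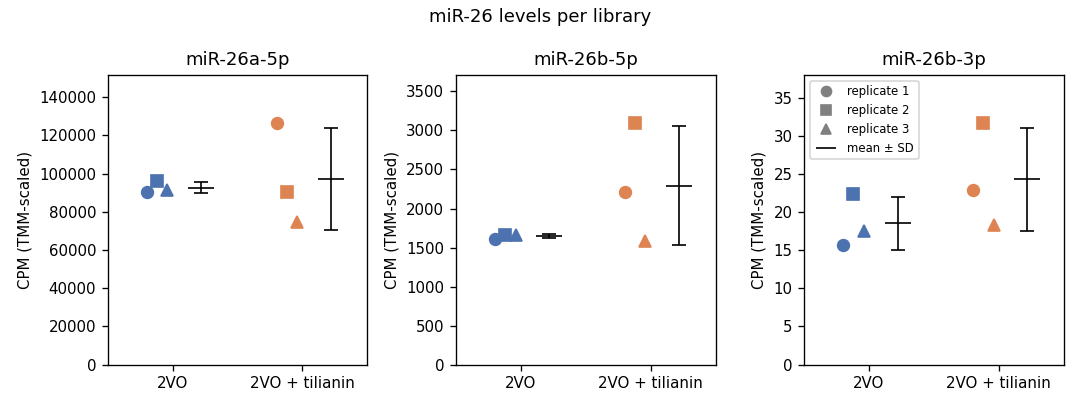
CPM after TMM scaling of miR-26a-5p, miR-26b-5p and miR-26b-3p in each library, with the mean ± SD of each group beside the points. The 2VO libraries cluster tightly for the guide strands, at 90596 to 96007 CPM and 1612 to 1659 CPM, while the treated libraries spread on either side of or above them.

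miR-26b-5p, the guide strand of the Ctdsp1 hairpin, also missed the criterion. Its level was far below that of miR-26a-5p, at a mean of 1969 CPM and position 46 in the order of all miRNAs. Its level was 1612, 1659 and 1659 CPM for 2VO replicates 1, 2 and 3. For treated replicates 1, 2 and 3 it was 2211, 3095 and 1578 CPM. Treated replicates 1 and 2 were above every 2VO library and treated replicate 3 was below all of them. The 2VO libraries averaged 1644 ± 27.3 CPM and the treated libraries 2295 ± 762 CPM (SD, n = 3 each). The log2 fold change was 0.48 (standard error 0.27, 95% interval -0.15 to 1.11), with an unadjusted p-value of 0.114 and an adjusted p of 0.746 by edgeR's quasi-likelihood test. The interval reaches from 0.902-fold to 2.16-fold, so neither an equal level nor a doubling lies outside it. Of the 100 most abundant miRNAs, 8 had a larger log2 fold change. The difference rested largely on treated replicate 2. Without this library the log2 fold change was 0.22, and without treated replicate 3 it was 0.69, with an unadjusted p-value of 0.0222 and an adjusted p of 0.300 by the same edgeR test, still under the fold change threshold.

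miR-26b-3p, the passenger strand of the same hairpin, had 144, 290 and 136 counts in the 2VO libraries and 211, 206 and 150 counts in the treated libraries. Scaled, this came to 15.7, 22.4 and 17.6 CPM for 2VO replicates 1, 2 and 3 and to 22.9, 31.7 and 18.3 CPM for treated replicates 1, 2 and 3. The highest levels were in treated replicates 1 and 2, as for its guide strand, but 2VO replicate 2 came close to treated replicate 1 and the groups overlapped. The 2VO libraries averaged 18.6 ± 3.45 CPM and the treated libraries 24.3 ± 6.82 CPM (SD, n = 3 each). The log2 fold change was 0.39 (standard error 0.27, 95% interval -0.25 to 1.03), with an adjusted p of 0.774 by edgeR's quasi-likelihood test. Without treated replicate 2 it was 0.16.

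None of the 3 members passed the criterion, against 5.73% of the 454 tested miRNAs in either direction (4.63% upward and 1.1% downward). None had an unadjusted p-value below 0.05 by edgeR's quasi-likelihood test, against 7.27% of the tested miRNAs. The groups overlapped for all 3, whereas they did not overlap for 9.69% of the tested miRNAs. Without treated replicate 2 the criterion was passed by 2.92% of 445 tested miRNAs. A single value compared over 3 libraries against 3 cannot give a p below 0.1 in a two-sided exact permutation test, which gave 1, 0.4 and 0.2 for miR-26a-5p, miR-26b-5p and miR-26b-3p. The median log2 fold change of all tested miRNAs was -0.034. The absolute log2 fold change of miR-26a-5p was reached or exceeded by 393 of them and that of miR-26b-5p by 128, counting the miRNA itself. The fourth miR-26 row of the table, miR-26a-3p, had only 18, 21 and 21 counts in 2VO replicates 1, 2 and 3 and 29, 3 and 10 counts in treated replicates 1, 2 and 3. The fitted log2 fold change, -0.33, had a 95% interval from -1.83 to 1.16, so little can be said of it at this depth.

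**Figure D2:**
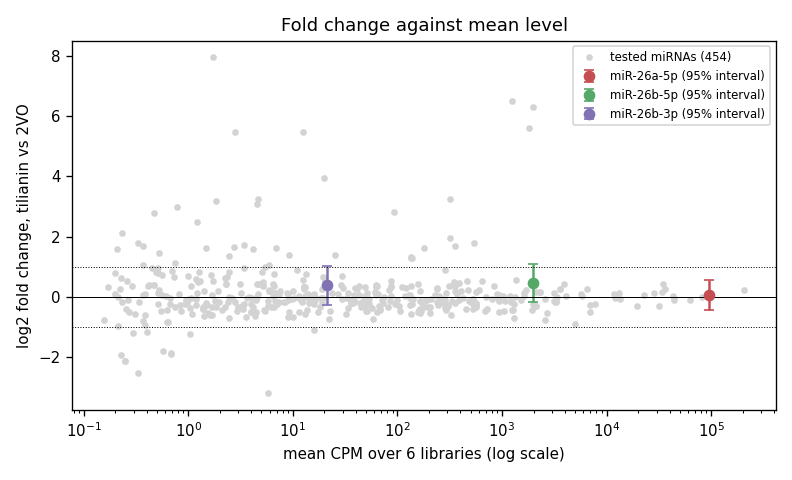
Log2 fold change of tilianin-treated against 2VO libraries (vertical axis) plotted against the mean CPM over 6 libraries (log axis) for the 454 tested miRNAs, with 95% intervals for the 3 miR-26 miRNAs. Each of the 3 intervals includes 0, and the dotted lines mark the fold change threshold of 1 in either direction.

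The libraries of the 2VO group were close together for the guide strands. The SD of log2 CPM over the 2VO libraries was 0.045 for miR-26a-5p and 0.024 for miR-26b-5p, against a median of 0.18 over the 100 most abundant miRNAs. Only 3 and 2 of these 100 miRNAs had a smaller SD. In the treated group the SD was 0.39 and 0.49, against a median of 0.32, and 60 and 69 of the 100 miRNAs had a smaller one. Of the 100 miRNAs, 73 had a larger SD in the treated group. Over treated replicates 1 and 3 alone the SD was 0.54 and 0.34, against a median of 0.18. A smaller one was found for 95 and 84 of the 100 miRNAs. There, 47 of the 100 had a larger SD than over the 2VO libraries, which sets 2 libraries against 3. The difference in spread was not tested.

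Since the guides share a seed, their levels were also summed. The sum was 92208, 97666 and 93144 CPM for 2VO replicates 1, 2 and 3 and 128678, 93602 and 76005 CPM for treated replicates 1, 2 and 3. Nearly all of it was miR-26a-5p, so the sum followed that miRNA, with the treated libraries again on both sides of the 2VO libraries. The mean log2 difference, treated minus 2VO, was 0.042, with p = 0.8 by the two-sided exact permutation test, and 0.085 without treated replicate 2.

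The balance between the guides was read as a count ratio within each library, which does not depend on library scaling. miR-26a-5p had 56.2, 57.9 and 55.1 times the counts of miR-26b-5p in 2VO replicates 1, 2 and 3. In treated replicates 1, 2 and 3 it had 57.2, 29.2 and 47.2 times the counts. Treated replicate 1 was within the 2VO range, treated replicate 3 was below it, and treated replicate 2 was far below it. The mean log2 ratio was 5.82 ± 0.035 in the 2VO group and 5.42 ± 0.50 in the treated group (SD, n = 3 each). The difference was -0.39, with p = 0.3 by the two-sided exact permutation test. Without treated replicate 2 the difference was -0.12. The levels of the guides across the 6 libraries had a Pearson r of 0.34 and a Spearman rho of 0.43 on log2 CPM, values in which the shared library scaling also takes part.

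Treated replicate 2, with the low ratio, had the highest miR-26b-5p level of all 6 libraries (3095 CPM, with at most 1659 CPM in the 2VO group), while its miR-26a-5p level of 90507 CPM was close to the lowest 2VO library at 90596 CPM. To see how other miRNAs with a common seed behaved there, 57 same-seed pairs among 40 miRNAs with a mean of at least 100 CPM were examined, a description added after the data were seen. The log2 ratio of miR-26a-5p to miR-26b-5p in treated replicate 2 was 4.87, against a mean of 5.77 and a range of 5.56 to 5.85 in the other 5 libraries, a shift of -0.90. The median absolute shift of the 57 pairs was 0.29, and 1 other pair, miR-148b-3p with miR-152-3p, shifted further, by -1.28. The most abundant miRNA, miR-99a-5p, and miR-218b were in none of the pairs, so this ranking holds among the 57 only. In treated replicate 2, 37 of the 57 pairs lay outside the range of the other 5 libraries, and the same count was 11 to 20 for each of the other libraries. The median absolute shift of those libraries was 0.092 to 0.18. Every pair has a single highest and a single lowest library, so a high count in treated replicate 2 lowers the other counts. Pairs that share a miRNA are not independent, and 36 of the 57 were pairs within let-7 and miR-98.

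**Figure D3:**
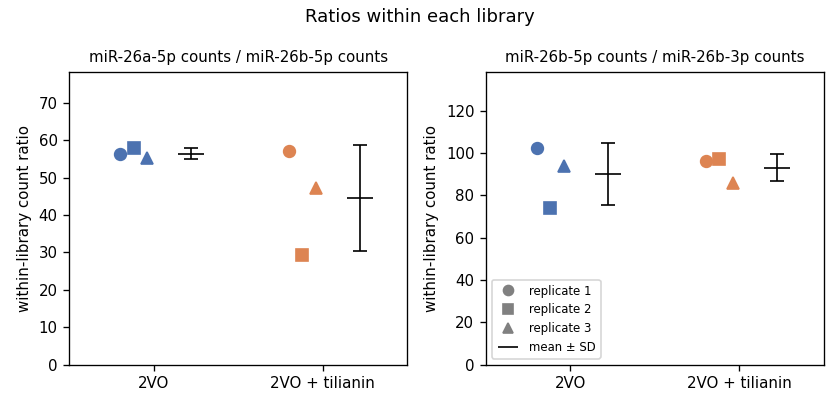
Within-library count ratios of miR-26a-5p to miR-26b-5p (left) and of miR-26b-5p to miR-26b-3p (right), with the mean ± SD of each group. The left ratio is 55.1 to 57.9 in the 2VO libraries and falls to 29.2 in treated replicate 2. Both ratios overlap between the groups.

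**Figure D4:**
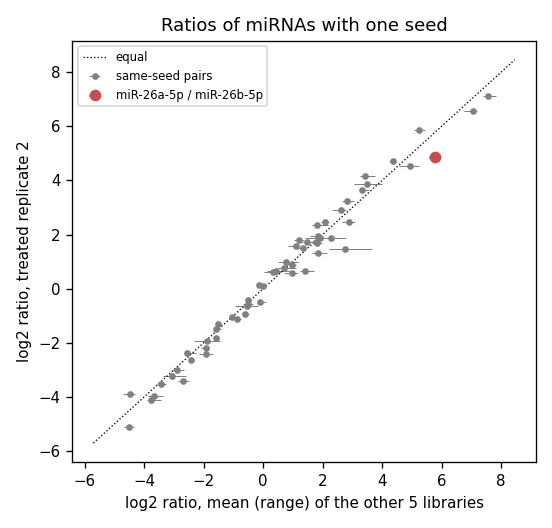
Log2 count ratio of each of 57 same-seed pairs in treated replicate 2 (vertical axis) against the mean and range of the other 5 libraries (horizontal axis). The pair of miR-26a-5p and miR-26b-5p lies below the line of equal ratios, at 4.87 against 5.77.

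The balance between the arms of the Ctdsp1 hairpin differed by less between the groups than between libraries within a group. miR-26b-3p made up 0.964%, 1.33% and 1.05% of the counts of both arms in 2VO replicates 1, 2 and 3. The share was 1.03%, 1.01% and 1.15% in treated replicates 1, 2 and 3. The highest share, in 2VO replicate 2, had a 95% Wilson interval of 1.19% to 1.49%, which overlaps those of 2VO replicate 3 (0.888% to 1.24%) and treated replicate 3 (0.978% to 1.34%). It does not overlap those of 2VO replicate 1 (0.819% to 1.13%), treated replicate 1 (0.897% to 1.17%) or treated replicate 2 (0.886% to 1.16%). As a log2 ratio of guide to passenger with 0.5 added to each count, the means were 6.48 ± 0.24 in the 2VO group and 6.54 ± 0.10 in the treated group (SD, n = 3 each), and the difference of 0.059 gave p = 0.8 by the two-sided exact permutation test. In treated replicate 2 the guide and the passenger strand of this hairpin were thus high together, at 97.3 guide counts per passenger count, within the 2VO range of 74.0 to 102. Without this library the difference of the log2 ratio was 0.026.

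As counted, the arms of miR-26a were far more one-sided than those of miR-26b. Over all 6 libraries miR-26a-3p was 0.00198% of the counts of both arms, whereas miR-26b-3p was 1.10%. These shares compare counts of mature miRNAs. Whether all miR-26a-5p reads came from the Ctdspl hairpin was not examined. Among 179 hairpins with rows for both arms and at least 100 counts, the median share of the minor arm was 2.02%. Only 16 hairpins had a smaller share than the miR-26a arms, all with 0 counts of the minor arm among 134 to 47562 counts in total, too few to place them below it.

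The miRNAs whose log2 CPM followed miR-26a-5p most closely over the 6 libraries, among the 100 most abundant, were miR-191a-5p (Pearson r 0.96, Spearman rho 0.83), let-7d-5p (0.90 and 0.83), miR-652-3p (0.77 and 0.31), miR-149-5p (0.74 and 0.89) and miR-125a-5p (0.74 and 0.94). Those closest to miR-26b-5p were miR-195-5p (0.94 and 0.77), let-7i-5p (0.92 and 0.77), miR-1b (0.91 and 0.66), miR-10b-5p (0.90 and 0.26) and miR-486 (0.88 and 0.60). The lists had no miRNA in common. For miR-10b-5p the Spearman rho was low beside the Pearson r, and its level in the treated group was 3572 ± 5883 CPM (SD, n = 3). These likenesses are descriptions over 6 libraries that share depth and scaling.

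Of the other miRNAs tied to the REST circuit of the host genes, 0 of 8 tested passed the criterion, against 5.73% of all tested miRNAs, and their median log2 fold change was -0.34. They are both arms of miR-124, miR-9a, miR-132 and miR-212, neuronal miRNAs that REST is known to repress. The log2 fold change was -0.01 ± 0.24 (standard error) for miR-124-3p, which represses Ctdsp1, and -0.30 ± 0.19 for miR-9a-5p, which represses REST. All 8 fold changes, which come from 4 kinds of hairpin, were below 0 in edgeR's fit, as were 242 of the 454 tested miRNAs, and the smallest unadjusted p-value, that of miR-9a-5p by edgeR's quasi-likelihood test, was 0.155. Their summed level ran from 121062 to 145162 CPM over the 2VO libraries and from 86098 to 145016 CPM over the treated libraries, lowest in treated replicate 2. Without that library 5 of the 8 fold changes were below 0, with a median of -0.075.

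miR-101a-3p and miR-101b-3p, which repress EZH2 as miR-26a does, had log2 fold changes of 0.01 ± 0.18 and 0.12 ± 0.27 (standard error), and neither passed. Without treated replicate 2 these were -0.0011 and -0.061, so their direction was not settled.

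Among markers of other cell types, to be read beside 4.63% of all tested miRNAs called upward and 1.1% downward, the counts that passed upward and downward were 0 and 0 of 6 tested neuronal, 0 and 0 of 2 oligodendrocyte, 1 and 0 of 5 myeloid, 0 and 0 of 2 endothelial, 0 and 0 of 3 mural, 2 and 0 of 3 choroid plexus, 1 and 0 of 2 erythroid and 2 and 0 of 3 Hox-cluster miRNAs. The mural miRNAs had only 1 to 24 counts per library and miR-219a-2-3p (oligodendrocyte) 0 to 6, so little can be said of them. miR-219a-5p, with at most 1 count, was not tested. Without treated replicate 2, the upward calls were 0 myeloid, 1 choroid plexus, 1 erythroid and 2 Hox-cluster miRNAs, beside 2.02% of all tested miRNAs. Beside the high miR-26b-5p of treated replicate 2, the summed erythroid miRNAs came to 881 CPM there and to 155 to 198 CPM among 2VO libraries, nearly all of it miR-486. The lowest treated library, at 338 CPM, was also above the 2VO libraries. The other erythroid miRNAs were near the floor, with 0 to 4 counts of miR-451-5p and 2 to 23 counts of miR-144-3p per library. The erythroid sum thus describes miR-486 alone. In treated replicate 2 the summed myeloid miRNAs came to 756 CPM, with 329 to 462 CPM among 2VO libraries. The lowest treated library had a myeloid sum of 462 CPM. In bulk tissue, a change in the share of a cell type and a change of level within cells cannot be told apart.

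**Figure D5:**
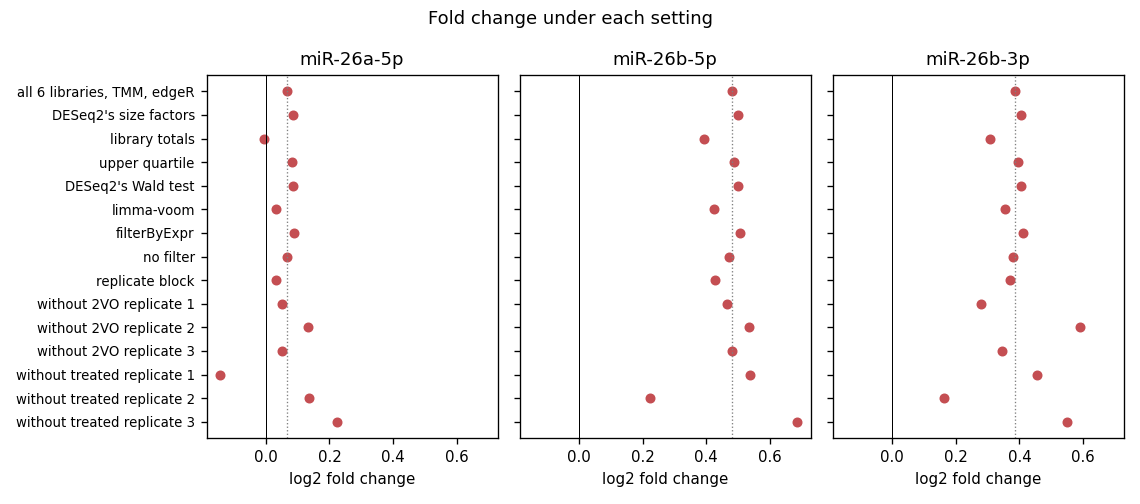
Log2 fold change of each miR-26 miRNA under every analysis setting (one row each), with the dotted line at the value with all 6 libraries, TMM scaling and edgeR. miR-26a-5p crosses 0, from -0.14 to 0.22, while miR-26b-5p stays between 0.22 and 0.69 and miR-26b-3p between 0.16 and 0.59.

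Across all settings, the fold changes of miR-26b-5p and miR-26b-3p kept a positive sign and never passed the criterion. The lowest unadjusted p-values in edgeR's quasi-likelihood test were 0.0222 for miR-26b-5p and 0.0836 for miR-26b-3p, both without treated replicate 3. For miR-26a-5p the lowest unadjusted p-value of the same edgeR test was 0.273, also without that library.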

How the data were processed

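Small RNA was sequenced from rat brain with TruSeq Small RNA kits, and the authors deposited read counts per mature miRNA for each library, without normalization. The submitters' processing notes name FastQC 0.11.2, Trimmomatic 0.36, cutadapt 1.14 and DESeq2 1.12.4; aligner, miRNA reference, build and counting program are not given in the sources used here. Columns were matched to libraries by the codes in the labels. A miRNA was tested if its counts summed to 10 or more over the libraries. The fit used R 4.3.3 and edgeR 4.0.16 (TMM scaling, quasi-likelihood test, group as the single model term), with Benjamini-Hochberg adjustment over all 454. Alternatives also used DESeq2 1.42.0 and limma 3.58.1. Standard errors and 95% intervals were derived from the F statistic and are approximate. For ratios and sums, two-sided exact permutation tests over libraries were used. The code was tested on simulated data. The members, the marker lists and the naming rule (the members, their closest miRNAs, the lists and the most abundant miRNAs) were chosen with earlier results of these data known. Alternatives changed the scaling, test, filter, replicate block and libraries. Replicate numbers were not treated as pairs. A further miRNA list named in the design is not reported here.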

Additional observations from a re-analysis of the deposited data

How the results depend on the processing

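None of miR-26a-5p, miR-26b-5p and miR-26b-3p passed the criterion in any of the 14 alternative fits. For miR-26a-5p the log2 fold change reversed to -0.0041 with library totals and ran from -0.14 (without treated replicate 1) to 0.22 when single libraries were left out. In those fits miR-26b-5p ran from 0.22 to 0.69 and miR-26b-3p from 0.16 to 0.59. The summed guides reversed to -0.025 with library totals, and ran from -0.14 (without treated replicate 1) to 0.21. The log2 ratio of the guides differed by -0.60 to -0.12, and that of the miR-26b arms by -0.076 (without 2VO replicate 2) to 0.16. The cause of this was not tested. Over all miRNAs, 21 passed upward and 5 downward. Upward it was 6 with limma-voom and 9 with the replicate block, and 7 to 29 with each library left out. Downward it was 2 with filterByExpr, 3 with limma-voom, 8 with library totals and 3 with DESeq2's Wald test, and 2 to 5 with each library left out. No miRNA passed an adjusted 0.05 in edgeR's main comparison, where 33 had an unadjusted p under 0.05. With the replicate block the log2 fold changes were 0.03, 0.43 and 0.37 for miR-26a-5p, miR-26b-5p and miR-26b-3p, and paired sign-flip tests, which cannot go below 0.25, gave exact p of 0.5 for the ratio of the guides and 1 for the arms and the sum. Same-numbered libraries deviated from their group means with correlations of -0.12, 0.0092 and 0.30. So few values cannot decide whether same-numbered libraries were handled together. Depth limits miR-26a-3p, with 3 to 29 counts per library.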
